A study of Saccharomyces cerevisiae with 24 samples.

Results

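PG-259 is 1 of 8 adapted Saccharomyces cerevisiae mutants whose total RNA was hybridised on 2-colour arrays, and its data are the 3 arrays labelled Adaptive Mutant PG-259 of 24 arrays in all. They held the same place, column 2 and row 2, on slides 1, 2 and 3, each against RNA of the reference strain named GFP. PG-353 and PG-132 shared that reference, with 3 arrays each, while the other mutants had a reference named YFP or DsRed. The mutants came from evolutionary engineering for tolerance to hydrolysates of plant biomass, and the labels give YNB minimal medium without glucose and hydrolysate at 1 g/mL for the cultures, without saying whether these were 1 medium. The series text calls the 3 slides biological replicates. The genes or mutations behind PG-259 are not given in the labels, and how the fluorescent reference relates to the parent of PG-259 is not stated. The values below are log2 ratios of PG-259 over the GFP reference for 4069 named genes, with array 1, 2 and 3 standing for slide 1, 2 and 3, and with the median of each array set to 0. Their direction on slide 2, where PG-259 carried Cy3 and not Cy5, is likely but not stated. In M1, another of the 8 mutants, the a-cell gene MFA2 had 6.76 on slide 2 and 6.26 on slide 3. The alpha-cell gene STE3 had -6.13 and -5.71 there, while on slide 1 the 2 genes had 0.07 and 0.56.

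Hydrolysates carry furan aldehydes, weak acids and phenolics beside their sugars. Yeast is known to meet them by reducing aldehydes with NADPH or NADH, by pumping out acids and other toxic compounds, and by the general stress response that the factors Msn2 and Msn4 drive. Sulfate assimilation, which reduces sulfate to sulfide for methionine and cysteine, also draws on NADPH.

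The array labelled PG-259 on slide 1 stood apart from the other PG-259 arrays, and from the array pattern of its label. The 187 genes of chromosome VIII had a median 0.42 above that of all genes on array 1, against 0.03 on array 2 and 0.08 on array 3, and 164 of them (87.7%) lay above 0 on array 1 beside 49.6% of the genes elsewhere. In 4 stretches of the chromosome from left to right the medians on array 1 were 0.49, 0.40, 0.39 and 0.41. The same raised level was seen in PR-438, a mutant set against the DsRed reference, on slides 2 and 3 (0.44 and 0.46) but not on slide 1 (0.01), and in none of the 18 arrays of the other mutants, where the shift ran from -0.11 to 0.04. Across 3851 genes outside chromosome VIII, after the mean of each slide was taken out, array 1 of PG-259 had a Spearman correlation of -0.15 and -0.51 with arrays 2 and 3 of PG-259, and of 0.18 and 0.38 with arrays 2 and 3 of PR-438. Array 1 of PR-438 itself had 0.29 and 0.20 with those PR-438 arrays, and -0.22 and -0.27 with arrays 2 and 3 of PG-259. Arrays 2 and 3 of PG-259 had 0.12 with each other over 4066 genes, chromosome VIII included. MF(ALPHA)2, an alpha-factor gene of alpha cells, had -3.03 on array 1 of PG-259, 0.84 on array 2 and 1.54 on array 3, while PR-438 had -1.51, -2.11 and -2.80. Among the other alpha-cell genes, STE3 and SAG1 were below 0 on array 1 of PG-259 and above 0 on arrays 2 and 3. In PR-438 both were below 0 on all arrays, and so they were in PR-338. MF(ALPHA)2 was below 0 on all arrays of PR-338, PR-164 and PG-353 as well, and above 0 on all arrays of PG-132. Low values of these genes are therefore not particular to PR-438. MF(ALPHA)1, the other alpha-factor gene, went another way, with 0.47, -2.04 and 2.52 in PG-259 and 1.31, -1.99 and -0.33 in PR-438. Whether a label or a sample was exchanged was not tested, and fitted values below are given with and without array 1 unless another fit is named.

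**Figure D1:**
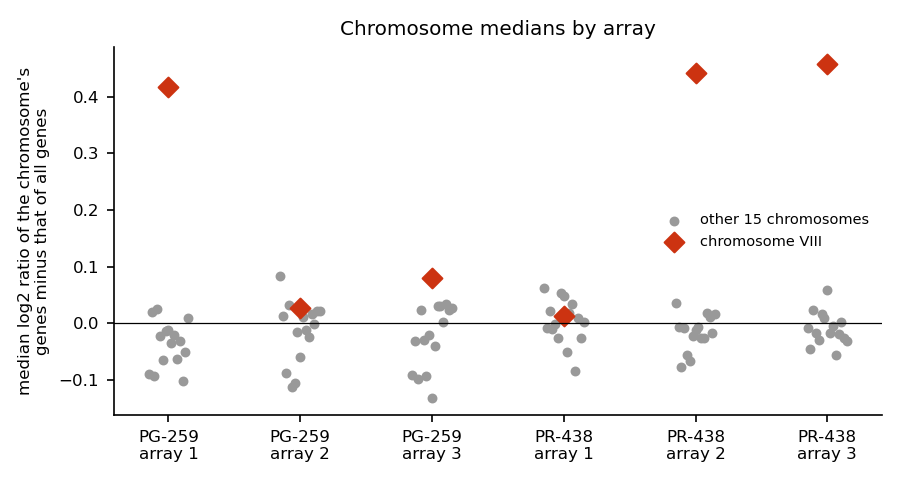
Median log2 ratio of each chromosome's genes minus the median of all genes (vertical axis) on the 3 arrays of PG-259 and the 3 of PR-438 (horizontal axis), with chromosome VIII marked. Chromosome VIII stands at 0.42 on array 1 of PG-259 and at 0.44 and 0.46 on arrays 2 and 3 of PR-438, while the other chromosomes of PG-259 stay between -0.13 and 0.08.

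The 3 PG-259 arrays shared little across genes. The Spearman correlation over genes was -0.05 between arrays 1 and 2, -0.02 between arrays 1 and 3 and -0.24 between arrays 2 and 3, and 862 of 4066 genes measured on all of them had 1 sign throughout. With the mean of each slide taken out, these correlations were -0.15, -0.49 and 0.12. The probes of a gene correlated at 0.63, 0.89 and 0.62 on arrays 1, 2 and 3. Such agreement of probes cannot tell a change of the gene from a bias of the array, and which it was was not tested. Bright genes differed between the PG-259 arrays, with brightness inferred from the form of the deposited ratios and not measured. The brightest 25% of genes had medians of 0.03, -0.75 and 0.22 on arrays 1, 2 and 3, while each dimmer 25% stayed between -0.08 and 0.09. Slide 2 was the one with exchanged dyes. The Spearman correlation of the ratio with brightness on slide 2 was -0.36 in PG-259, against -0.46 to -0.22 on the 7 other arrays, while on slide 3 it was 0.14 in PG-259, against -0.32 to 0.29 on the others. The fit takes out 1 dye effect per gene, estimated from all 24 arrays, so a fitted ratio is not the plain mean of the 3 arrays. Dye and slide 2 cannot be told apart, and the tests do not hold the difference between slide 2 and the others.

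Only FKS1 and PAB1 differed from the GFP reference by limma's test over all genes, both lower in PG-259. No gene was called higher (0%) and 2 genes were called lower (0.0492% of 4069). At an unadjusted p under 0.05 there were 122 genes higher (3%) and 235 lower (5.78%). FKS1, the main catalytic subunit of the glucan synthase that builds the cell wall, had -0.65, -2.16 and -0.10 on arrays 1, 2 and 3. Its fitted ratio was -1.27 ± 0.22 (SE, n = 3, adjusted p = 0.0303). PAB1, the poly(A)-binding protein of messenger RNA tails, had -1.31, -2.27 and 0.32, with a fitted -1.38 ± 0.24 (adjusted p = 0.0303). Array 2 was the lowest for both genes, and array 3 showed FKS1 near 0 and PAB1 above it. On slide 2 FKS1 was as low in other mutants, at -2.60 to -0.95 on the 7 other arrays, and PAB1 had -2.53 to -1.73 there. On slide 1 both genes were lower in PG-259 than on each of the 7 other arrays, which had -0.25 to 0.37 for FKS1 and -0.99 to 0.13 for PAB1. Without array 1 limma called 0 genes by its adjusted p, with 199 higher (4.89%) and 211 lower (5.19%) at an unadjusted p under 0.05, and FKS1 then had -1.13 (adjusted p = 0.234) and PAB1 -0.98 (adjusted p = 0.237). Without array 2, where the dye effect comes from slide 2 of the other mutants, FKS1 and PAB1 had fitted ratios of -1.30 and -1.38, both with an adjusted p of 0.0915. After a loess on brightness they had -0.73 (adjusted p = 0.459) and -0.84 (adjusted p = 0.499), and on slides 2 and 3 alone with that loess -0.56 and -0.41.

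The lowest fitted ratios among genes with 1 sign on all arrays included no other called gene. NCE103, carbonic anhydrase, had -0.59, -2.67 and -1.09 on arrays 1, 2 and 3 (fitted -1.46 ± 0.53, adjusted p = 0.377, and -1.88 without array 1). SAM2, an S-adenosylmethionine synthetase, had -1.55, -2.17 and -0.14 (fitted -1.40 ± 0.44, adjusted p = 0.297, and -1.15 without array 1). POL30, the replication clamp PCNA, was nearly even by gene mean at -1.16, -1.37 and -0.90, yet its probes read 0.59 and -2.40 on array 3. SMT3, the SUMO protein, PUB1, a poly(U)-binding protein, and WTM1, a WD-repeat protein, had fitted ratios of -1.11, -1.02 and -0.99, and of -1.09, -1.03 and -1.08 without array 1. Each of these 3 stood between -2.02 and -1.86 on array 2, and between -0.83 and -0.08 on the others. MET1, MET8 and MET2 complete this group and stand with the sulfur genes below. NCE103 was lower in PG-259 than on each of the 7 other arrays on slide 2 (-2.10 to 2.58), but not on slides 1 and 3.

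Among the 10 highest ratios with 1 sign, most genes had probes that were far apart on array 3. A gene had mostly 2 probes, and they differed by more than 2 on the log2 scale for 127 of 4066 genes on array 3 (3.12%), 36 genes on array 1 (0.885%) and 12 on array 2 (0.295%). Of the 10 highest genes 8 were among those 127, against 1 of the 10 lowest. NMA2, an adenylyltransferase of NAD synthesis, read 6.61 and -0.01 with its probes on array 3, and 0.13 to 0.29 on the other arrays. SNF4, the gamma subunit of the Snf1 kinase that acts when glucose is short, read 5.11 and -0.06 on array 3. PKC1, protein kinase C of the cell wall integrity pathway, read 4.80 and -0.34 there, and YAP1801, a clathrin adaptor, 3.76 and -0.61. With such values left out, a choice made after seeing the data, the fitted ratio was 0.21 in place of 1.16 for NMA2, 0.32 in place of 1.02 for SNF4, and 0.08 in place of 0.84 for PKC1. YAP1801 changed less, with 0.94 in place of 1.11, its array 1 being at 1.66, and without array 1 it had 0.90. This gene lies on chromosome VIII, as do PAN5, NPR3 and SSP1 below. YAE1, a protein of iron-sulfur cluster assembly, and PAN5, a reductase of pantothenate synthesis, were in the same class with 0.10 in place of 0.85 and 0.32 in place of 0.87. SAP155, a partner of the phosphatase Sit4, and IDP2, the cytosolic isocitrate dehydrogenase that makes NADPH, had fitted ratios of 0.91 and 0.86, and 0.75 and 1.25 with such values left out. Without array 1 the fitted ratios were 1.75 for NMA2, 1.38 for SNF4, 1.16 for PKC1, 1.18 for YAE1, 1.06 for PAN5, 0.87 for SAP155 and 0.23 for IDP2, with the values of array 3 kept. TOM70, a receptor of mitochondrial import, had probes of 0.43 and 0.95 on array 3 but of 0.38 and 2.74 on array 1, and its fitted ratio was 0.78, or 0.45 without array 1.

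PUT3, the activator of proline use, had probes less than 1 apart on all arrays. They were still further apart than the median gap over genes, which was 0.15, 0.14 and 0.22 on arrays 1, 2 and 3. Its gene means were 0.63, 0.52 and 2.36 on arrays 1, 2 and 3, and its probes read 0.31 and 0.94, 0.30 and 0.74, and 2.55 and 2.18. It was the 1 gene of 4036 measured on all 24 arrays for which PG-259 was the highest of 8 arrays on every slide. The other 7 mutants had 1 to 21 such genes, so a count of 1 was at the low end. The fitted ratio of 1.14 ± 0.26 did not pass (adjusted p = 0.181), and without array 1 it was 1.44 (adjusted p = 0.234). PG-132 had 1.27 on slide 3, and the other arrays of PG-353 and PG-132 had 0.03 to 0.22. After quantile normalization PUT3 was the gene called higher, at 1.11.

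**Figure D2:**
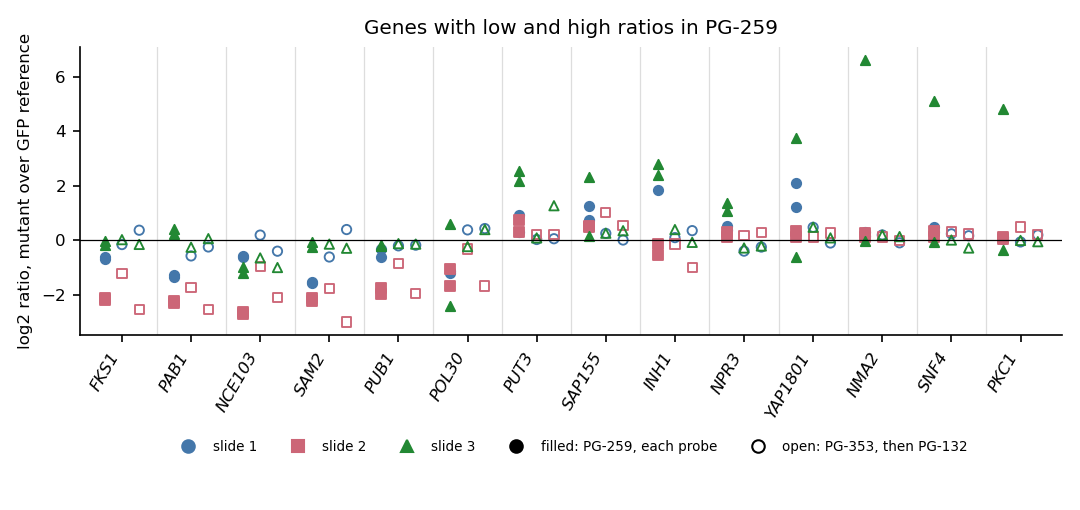
Log2 ratio of mutant over GFP reference (vertical axis) for genes with low and high values in PG-259 (horizontal axis), by slide. Filled points are the probes of PG-259 and open points the gene means of PG-353 and PG-132. FKS1 and PAB1 lie lowest on slide 2 in all 3 mutants, and the probes of PUT3 lie less than 1 apart on each slide. Those of NMA2, SNF4 and PKC1 on slide 3 lie at 6.61 and -0.01, 5.11 and -0.06, and 4.80 and -0.34.

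The difference between PG-259 and the other mutants with the GFP reference, in which that reference cancels, held no called gene. By limma 0 of 4069 genes passed (0% in each direction) against the mean of PG-353 and PG-132, and 62 (1.52%) had an unadjusted p under 0.05. The counts were 0 and 52 (1.28%) against PG-353 alone and 0 and 54 (1.33%) against PG-132 alone. Without array 1 it was again 0, with 109 genes (2.68%) at an unadjusted p under 0.05. Each of these shares is smaller than the 0.05 of the threshold. The fit does not pair the arrays of a slide, which deviated together, so their shared spread can add to the error of this difference. INH1, the inhibitor that keeps mitochondrial ATP synthase from hydrolysing ATP, had the lowest p. It had 1.84, -0.34 and 2.60 in PG-259 on slides 1, 2 and 3, against 0.10, -0.14 and 0.39 in PG-353 and 0.35, -0.99 and -0.08 in PG-132. The difference was 1.42 ± 0.32 (unadjusted p = 0.000299, adjusted p = 0.9996), and 1.36 without array 1. PG-259 was the highest of 8 arrays for INH1 on slides 1 and 3 and lay among the others on slide 2. Its probes read 2.40 and 2.79 on array 3, but on array 1 only 1 probe gave a usable value, the ratio of the other being below 0. With that spot set to the lowest ratio of the array, INH1 stood at -0.24 against the reference.

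The other 9 genes of lowest p in that difference were YAP1801, NPR3, RAM2, CAM1, RAD30, PLB1, UFD1, IBA57 and SSP1. NPR3, a subunit of the complex that restrains TORC1, was the one with close probes, and had 0.45, 0.21 and 1.22 in PG-259 on slides 1, 2 and 3, against -0.40, 0.18 and -0.28 in PG-353 and -0.25, 0.29 and -0.21 in PG-132. Its difference was 0.74 ± 0.22, and 0.78 without array 1. RAM2, the farnesyltransferase alpha subunit, had 0.67, 0.12 and 0.27 in PG-259, with probes of -0.49 and 1.84 on array 1. RAD30, DNA polymerase eta, had probes of -0.29 and 1.12 on array 1 and of -0.51 and 1.40 on array 3. In 5 of the 8 genes with both probes measured on arrays 1 and 3, the probes differed by more than 1 on both arrays and the same probe was the high one. Over all genes this held for 36 of 3967. ARP2, a subunit of the actin-nucleating Arp2/3 complex, showed the same, with probes of 2.00 and 0.25 on array 1 and of 2.98 and -0.31 on array 3. MSB3, a GTPase-activating protein (GAP) for Rab GTPases, had probes of 1.19 and 0.39 on array 1 and of 2.91 and -0.07 on array 3.

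Sulfate and methionine genes were low in PG-259 mainly on array 2. The 10 genes of sulfate uptake and reduction had medians of -0.31, -1.85 and 0.18 on arrays 1, 2 and 3, and all 10 had fitted ratios below 0, as did 2183 of 4069 genes. The median fitted ratio was -0.92, beside -0.02 over all genes, and -0.93 without array 1. No member was called by limma, and 3 had an unadjusted p under 0.05. SUL2, a sulfate permease, had -0.33, -2.43 and 0.08, and MET10, a subunit of sulfite reductase, had -0.77, -1.79 and 0.04. MET1 and MET8, which make the siroheme cofactor of that enzyme, had -3.41 and -3.01 on array 2 and -0.80 to -0.04 on the others. MET3, ATP sulfurylase, and MET16, PAPS reductase, had -1.64 and -2.26 on array 2, against 0.39 and 0.29 on array 3.

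In the 20 genes of methionine, S-adenosylmethionine and cysteine synthesis, the medians were -0.16, -1.78 and 0.26 on arrays 1, 2 and 3, with 17 fitted below 0 and a median fitted ratio of -0.69 (-0.54 without array 1). After a loess on brightness it was -0.33, with -0.57 on array 2. STR3, cystathionine beta-lyase, had 0.93, -4.24 and 0.21, the lowest value of any gene on array 2. MHT1, a homocysteine methyltransferase, had -0.12, -3.21 and 0.22, and MET2, homoserine acetyltransferase, had -0.22, -2.11 and -0.57. MET17, the enzyme that fixes sulfide, was at -1.86 on array 2 and 2.05 on array 3. Among the regulators, MET32 and MET28, partners of the activator Met4, had -2.54 and -1.80 on array 2, while MET4 itself had -0.16, -0.23 and -0.20 and MET30, the ubiquitin ligase subunit that restrains it, had -0.38, -1.02 and -0.57. The other mutants with the GFP reference were alike on that slide. The sulfate list stood at -2.36 in PG-353 and -2.61 in PG-132 on slide 2, and at 0.13 and 0.22 on slide 3. PG-259 minus their mean had a median of 0.01 over the list, -0.17 without array 1 of PG-259 and 0.28 on slides 2 and 3 alone, with 0 of 10 at an unadjusted p under 0.05 in each of these fits. RNA of the GFP reference lies in all of these ratios. A low value shared by PG-259, PG-353 and PG-132 therefore cannot be told apart from a high value of the reference on that slide. In the fit to the 9 arrays with the GFP reference alone, MET8, MET1, SUL2, STR3 and MHT1 were the 5 genes called lower in PG-259, and FKS1 and PAB1 were not called, at nearly the same ratios of -1.28 and -1.40 (adjusted p of 0.115 and 0.134). With slide 2 turned round, both list medians were 0.73.

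**Figure D3:**
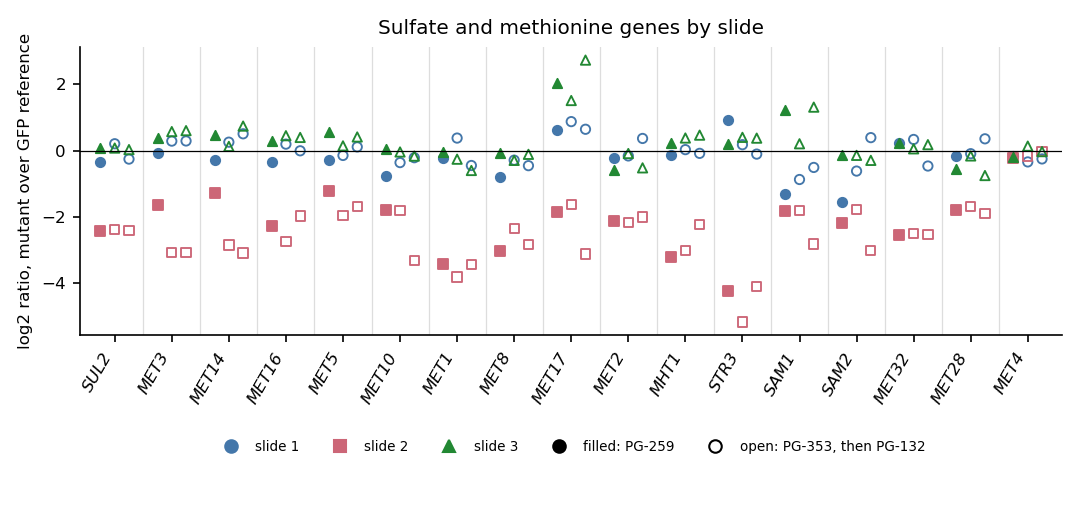
Log2 ratio over the GFP reference (vertical axis) for sulfate and methionine genes (horizontal axis) on each slide, filled for PG-259 and open for PG-353 and PG-132. The slide 2 points of MET1, MET8, MHT1 and STR3 lie between -4.24 and -3.01 in PG-259, those of PG-353 and PG-132 lie low as well, and slides 1 and 3 of PG-259 lie between -1.55 and 2.05.

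General stress genes were low in PG-259 on arrays 2 and 3 and high on array 1. Of 25 listed genes 24 were measured, with medians of 0.66, -1.37 and -0.76 on arrays 1, 2 and 3. On array 1, 22 of 24 lay above 0, against 2 on array 2 and 7 on array 3. The pattern of above 0 on array 1 and below 0 on both others held for 16 of 24, against 434 of 4069 over all genes. The median fitted ratio was -0.46 with array 1 and -0.86 without it. No member was called by limma in either fit. In the fit to slides 2 and 3 alone, chosen after seeing the data, 10 of 24 were lower at an unadjusted p under 0.05, against 200 of 4069 (4.92%) over all genes, with 192 (4.72%) higher. PG-259 had the lowest list median of the 8 arrays on slide 2, where the others had -1.18 to -0.31, and on slide 3, where they had -0.14 to 0.76. On slide 1 the others had -0.29 to 1.26. After a loess on brightness the medians on arrays 1, 2 and 3 were 0.62, -0.21 and -0.76, so the loess shrank the low value of array 2 and left that of array 3. A loess cannot tell a bias of bright genes from a real change in them, and the cause was not tested.

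HSP12, a membrane-stabilising small heat shock protein, had 1.63, -1.44 and -1.85 on arrays 1, 2 and 3, and SPI1, a cell wall protein, had 1.18, -1.72 and -2.27. CTT1, cytosolic catalase, had 1.53, -1.81 and -1.54, and HSP42, a small heat shock protein, had 0.87, -1.82 and -0.74. CTT1 and HSP42 were named after their values were seen. On slide 3 CTT1, SPI1 and HSP12 were each lower in PG-259 than on all 7 other arrays. HSP12 had 0.22 in PG-353 and -0.95 in PG-132 on that slide. SPI1 had -0.86 in PG-353 and -1.70 in PG-132 there. HSP26, a small heat shock protein, had 0.76, -1.36 and -0.79 in PG-259, while DDR2, a DNA-damage-responsive gene, had -0.27, -2.15 and 0.31.

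Some genes of other lists gave similar values. TKL2, the minor transketolase, had 0.63, -2.17 and -1.79 on arrays 1, 2 and 3. SOL4, a phosphogluconolactonase, had 0.86, -1.46 and -1.71, and PIR3, a cell wall protein, had 1.04, -1.63 and -2.24. Each of these was above 0 on array 1 and between -2.24 and -1.46 on both others. Without array 1 their fitted ratios were -1.98 for TKL2, -1.58 for SOL4 and -1.94 for PIR3, with adjusted p of 0.284, 0.237 and 0.327. The 21 genes of trehalose and glycogen had medians of 0.43, -0.59 and -0.40, lowest of the 8 arrays on slides 2 and 3. GLC3, the glycogen branching enzyme, had 0.43, -1.01 and -1.11, and GPH1, glycogen phosphorylase, had 0.91, -1.75 and -0.46. Chaperones were less even, with a median of 0.29 on array 3 beside 0.50 and -1.10 on arrays 1 and 2 over 25 genes. SSA4, an inducible Hsp70, had 0.65, -1.97 and -0.75, while the constitutive SSA2 had -1.13, -1.79 and 0.23 and its partner YDJ1 had -0.65, -2.29 and 0.67. Over the stress list PG-259 minus the mean of PG-353 and PG-132 had a median of 0.00, with 0 of 24 at an unadjusted p under 0.05. That median was -0.41 without array 1 of PG-259, with 2 of 24 at an unadjusted p under 0.05, and -0.47 on slides 2 and 3 alone, with 2 of 24, beside 109 and 64 of 4069 over all genes.

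**Figure D4:**
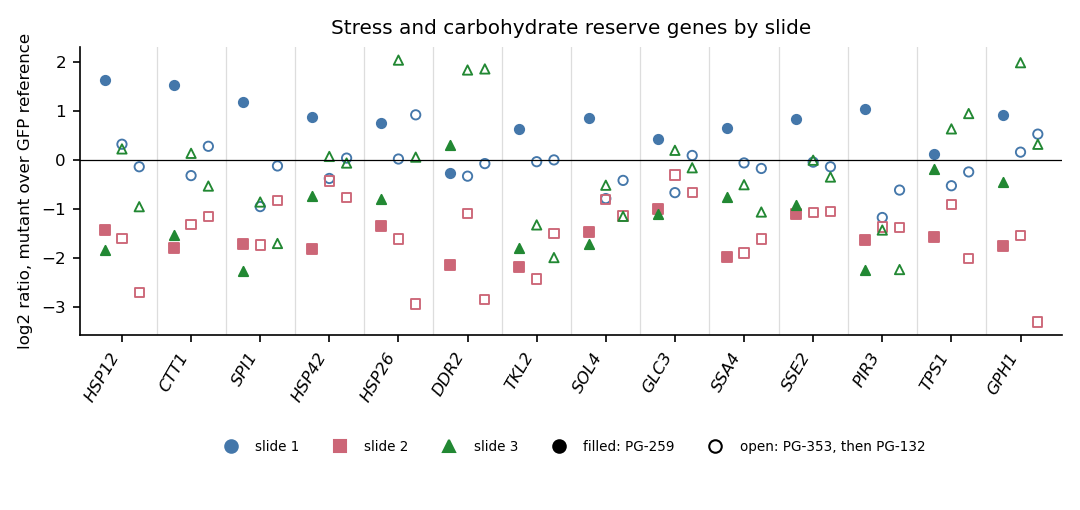
Log2 ratio over the GFP reference (vertical axis) for stress and carbohydrate reserve genes (horizontal axis) by slide, filled for PG-259 and open for PG-353 and PG-132. HSP12, CTT1, SPI1, TKL2, SOL4 and PIR3 of PG-259 lie above 0 on slide 1 and between -2.27 and -1.44 on slides 2 and 3.

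Ribosomal protein genes, which make the bright end of the array, were low on array 2 and high on array 3. The 80 genes of the large cytosolic subunit had medians of 0.43, -1.97 and 1.76 on arrays 1, 2 and 3, and the 56 of the small subunit had 0.30, -2.01 and 1.59. Their median fitted ratios of -0.40 and -0.44 were -0.12 and -0.12 without array 1, and 0.11 and 0.09 after a loess on brightness. PG-353 had -2.10 and PG-132 -3.07 for the large subunit on slide 2, and 1.29 and 2.02 on slide 3. Over the 7 other arrays the large subunit had -3.07 to -1.48 on slide 2 and -0.63 to 2.23 on slide 3. The 10 genes of upper glycolysis had 0.18, -1.78 and 1.69 in PG-259. TIF2, the initiation factor eIF4A, had 0.36, -2.35 and 1.79, the same course as these bright genes. GCD11, the gamma subunit of eIF2, had -0.43, -1.81 and -0.01, and SBP1, a repressor of translation, 0.31, -2.06 and 0.13. The 31 genes of translation initiation had a median fitted ratio of 0.05 (0.20 without array 1), with 1 called, PAB1.

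Ribosome biogenesis genes are dimmer and gave another order, with medians over 88 genes of -0.43, -0.14 and 0.66 on arrays 1, 2 and 3. On slide 3 PG-259 was the highest of 8 arrays for this list, the others having -0.56 to 0.26. The median fitted ratio was 0.06, or 0.25 without array 1, with 0 called. RRP5, a small-subunit processing factor, had -0.07, 0.21 and 2.35 and RRP3, an RNA helicase, 0.48, -0.09 and 1.70, whereas NSR1, nucleolin, had -1.01, -2.08 and 0.94. The 31 genes of RNA polymerase subunits had -0.09, -0.03 and 0.51.

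Respiration and lipid genes had no call by limma. The 46 genes of oxidative phosphorylation had medians of 0.63, -1.04 and 0.07 on arrays 1, 2 and 3, and the 21 of the tricarboxylic acid cycle 0.30, -1.03 and -0.09. COX13, a cytochrome oxidase subunit, had 0.63, -1.67 and -0.25, and STF1, a partner of the ATPase inhibitor Inh1, had -0.19, -2.27 and 0.96, a course unlike that of INH1. SDH1, the flavoprotein of succinate dehydrogenase, had -0.14, -1.68 and -0.09. Fatty acid synthesis held FAS2, FAS1 and ACC1, the synthase subunits and acetyl-CoA carboxylase, at -2.24, -2.14 and -2.11 on array 2 and 0.39 to 0.41 on array 3. With slide as a block FAS2 was called lower too, at -1.18, and without array 1 and with no block it had -0.93. The mitochondrial ribosomal proteins had medians of 0.24, 0.10 and -0.15 over 61 genes.

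Cell wall and hypoxic genes held no called gene but FKS1. SMI1, a regulator of glucan synthesis, had -0.41, -1.75 and -0.05 and CCW14, a structural glycoprotein, -0.07, -2.09 and -0.05, with the 38 wall genes at -0.00, -0.56 and 0.08. Over 22 hypoxic genes the medians were -0.28, -0.79 and 0.09. ROX1, the repressor of hypoxic genes, had -0.32, -1.21 and -0.76 on arrays 1, 2 and 3, whereas DAN1 and TIR1, mannoproteins of anaerobic walls, had -2.37 and -1.74 on array 1, -0.94 and -2.12 on array 2, and 0.10 and 1.18 on array 3. The 9 seripauperin genes, near-identical subtelomeric copies whose probes may not tell them apart, had small values with 1 sign in 8 of 9 and medians of -0.21, -0.29 and -0.40. On slides 2 and 3 PG-259 had the lowest median of 8 arrays for that list, the others having -0.28 to 0.24 and -0.40 to 0.11.

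The aldehyde reduction and efflux genes, both known for hydrolysate tolerance, had median fitted ratios near 0 in PG-259, at -0.01 and -0.01, and at -0.13 and -0.02 without array 1. The 16 measured genes that reduce aldehydes and furans had medians of 0.08, 0.07 and -0.20 on arrays 1, 2 and 3, with 8 fitted above 0, 8 below and 0 called. OYE3, an NADPH oxidoreductase, had 0.43, -2.10 and -0.35. AAD3, an aryl-alcohol dehydrogenase gene, had -1.30, -0.31 and -0.53. PG-132 had -1.30, 0.10 and -0.55 for this gene, and PG-353 had -2.6, -0.34 and -0.50. The 28 genes of drug efflux and weak acid response had -0.04, 0.05 and -0.00, with 0 called. PDR5, the broad drug pump, had -1.30, -1.66 and 0.21, TPO2, a polyamine exporter, had -0.58, -1.04 and -0.38, and PTK2, a kinase that activates the plasma membrane proton pump, had -0.18, -0.77 and -0.60. TPO2 and PTK2 had 1 sign on all arrays and the fitted ratios -0.74 ± 0.24 and -0.50 ± 0.24, with adjusted p of 0.306 and 0.573, and -0.71 and -0.69 without array 1. The 31 genes of the iron regulon and the 21 of thiamine and pyridoxine had fitted medians of 0.10 and 0.02, and of 0.04 and -0.05 without array 1.

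**Figure D5:**
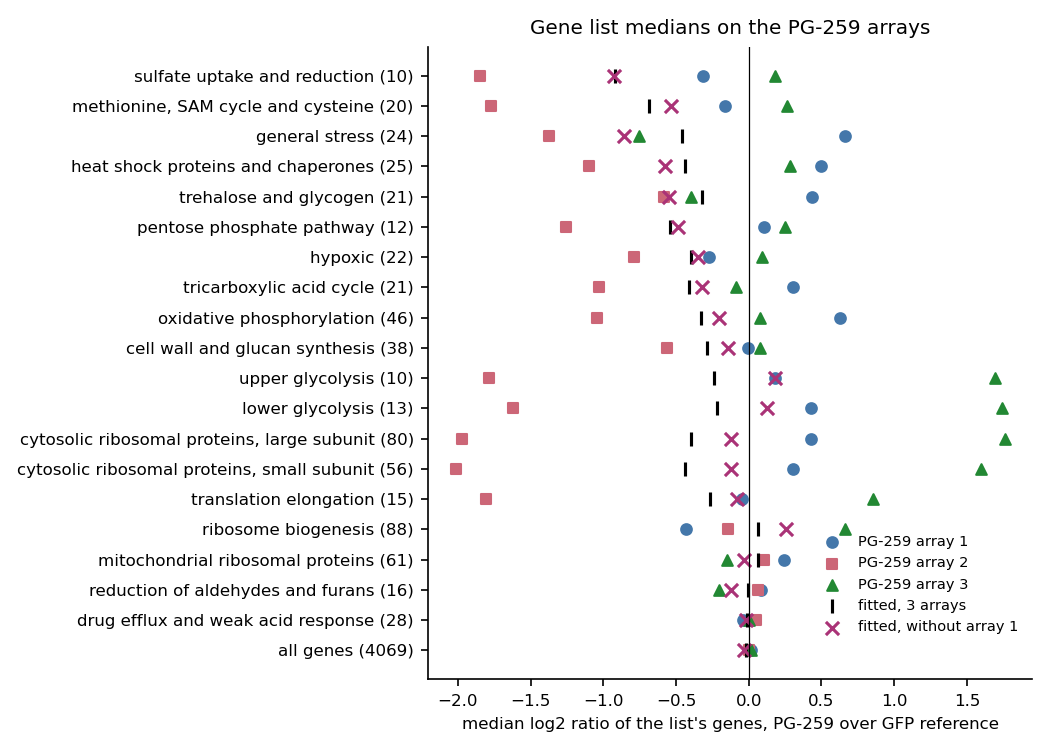
Median log2 ratio of PG-259 over the GFP reference (horizontal axis) for gene lists with the number of measured genes in brackets (vertical axis), one point per array, with the medians of the fitted ratios over 3 arrays and without array 1. Sulfate genes lie at -1.85 on array 2 alone, general stress genes at -1.37 and -0.76 on arrays 2 and 3 but at 0.66 on array 1, and ribosomal proteins of the large subunit at -1.97 on array 2 and 1.76 on array 3.

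The mating-type markers of a cells were near 0 in PG-259, with a median fitted ratio of 0.03 over 7 genes (-0.00 without array 1). Their array medians were -0.08, 0.06 and 0.01. These genes are among the dimmest of the array, with a median brightness percentile of 3.69, which limits what values near 0 can show. MFA1, which encodes a-factor, had 0.33, -0.66 and 0.01, and STE2, the receptor of a cells, 0.07, 0.24 and -0.00. Of the alpha-cell genes STE3, the receptor of alpha cells, had -0.32, 0.87 and 0.49, and the 4 measured had medians of -0.57, 0.83 and 1.02, with a median fitted ratio of 0.02, or 0.67 without array 1. MF(ALPHA)1 was below 0 on array 2 alone, at 0.47, -2.04 and 2.52. Markers of sporulating diploids had a median fitted ratio of 0.07 (-0.02 without array 1) over 45 meiosis and sporulation genes, which are among the dimmest of the array. These ratios compare PG-259 with its reference and do not give the mating type of either.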

How the data were processed

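The deposited table holds 15744 probes on 24 arrays. Its values are linear ratios of background-subtracted intensity, in another unit than the usual normalised log2 ratio, read from the values themselves, and how the authors scaled them is not stated in the labels. Spots at or below 0 (2.60%, 2.66% and 4.93% on the PG-259 arrays) were left out, log2 was taken and each array was centred on its named probes. Of the probes 8152 carried 1 symbol and 7592 none. Symbols were matched to the R64 catalogue (129 through a synonym, 4 unmatched) and the probes of a gene were averaged, which gave 4069 genes. Brightness was not read from intensities. It was taken from the smallest whole numbers whose quotient gives a spot's ratio, as the median over arrays. Such a quotient, with a denominator up to 10000, was found for 90.15%, 86.94% and 86.33% of spots on the PG-259 arrays. The other spots were given 10000 for both numbers, so many of the brightest genes are tied.

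The 24 arrays were fitted together with limma 3.58.1 in R 4.3.3 (data.table package, version 1.17.8), each mutant having its own coefficient beside 1 dye term shared by all arrays. A gene counted as called when its p after Benjamini-Hochberg adjustment was below 0.05. RNA of the GFP reference is on every PG-259 array, and whether 1 preparation served all slides is not known here. A deviation of the reference shared by all slides is not in the error of these tests. One that differs between slides adds to that error. The number of arrays limits the precision. Plots were drawn with matplotlib 3.10.9, and tables with pandas 2.3.3 and numpy 2.4.6 under Python 3.11.15. On simulated data the main fit over 4036 genes recovered 71% of log2 changes of 1 and 96% of those of 2 against the reference, and 57% and 94% in the difference from PG-353 and PG-132. The simulated noise was independent between arrays, without slide or dye effects, and the change was equal on all PG-259 arrays. The real arrays differ in this, so these shares do not give the power of the tests on them.

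Replicate numbers are slides, per the series design. Arrays of a slide deviated together: PG-259 correlated with PG-353 and PG-132 at 0.16 and 0.35 on slide 1, 0.85 and 0.91 on slide 2, and 0.65 and 0.80 on slide 3.

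Genes were named where called, where among the 10 highest or lowest with 1 sign on all PG-259 arrays, the 10 of lowest p in the difference, the 4 members of largest fitted ratio or key enzymes of a described list, or called under an alternative. PG-259 and the 56 lists were chosen with earlier results of these data known. No set test was run. PY-231 array 1 carried no gene signal (probe correlation -0.01) and stayed in the fit.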

Additional observations from a re-analysis of the deposited data

How the results depend on the processing

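What limma called against the reference changed with the treatment of slide 2 and its dyes. In place of 2 genes lower and 0 higher there were 0 and 0 without a dye term, 5 and 0 with only the arrays of the GFP reference, 0 and 1 (PUT3) after quantile normalization, 0 and 1 (INH1) after a loess on brightness, and 1 and 153 with slide 2 turned round. Leaving out 1 PG-259 array gave 0 to 5 genes lower and 0 to 5 higher. Fits to slides 2 and 3 alone gave 0 and 0, as did the same with a loess or with genes of discordant probes (over 2 apart) left out. These fits were chosen after seeing the data. With slide as the replicate block 3 genes were lower and 0 higher, the third being FAS2, and the pairing changed no other call. In the difference from PG-353 and PG-132 the range without 1 array was 0 to 1 higher, the 1 being INH1 without array 2, and other alternatives gave 0. The median of the sulfate list ran from -1.09 to -0.46 without 1 array and was 0.73 with slide 2 turned round, the methionine list from -1.01 to -0.42 and 0.73, and the general stress list from -0.86 to -0.25.

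With slide 2 turned round the fitted ratio turned sign in 62 of the 92 values of named genes. The values there were FKS1 0.82, PAB1 0.85, NCE103 0.50, SAM2 0.41, MET1 1.26, MET8 0.89, SMT3 0.59, MET2 0.56, PUB1 0.65, WTM1 0.73, GUA1 0.93, SUL2 0.87, MET10 0.57, STR3 1.99, MHT1 1.24, MET28 0.49, MET32 1.09, MET30 0.093, DDR2 0.95, SPI1 0.30 and HSP12 0.68. They were HSP26 0.60, SSA2 0.58, YDJ1 1.02, SSA4 0.72, SSE1 0.52, TPS1 0.66, GPH1 0.90, PGM2 0.83, GLC3 0.15, PIR3 0.23, CCW14 0.82, SMI1 0.67, SBP1 1.14, GCD11 0.65, TIF2 1.80, FAS2 1.04, ACC1 0.96, FAS1 1.01, ACB1 1.46, GAR1 1.44 and NSR1 0.83. The rest were TKL2 0.43, TKL1 0.92, TAL1 1.56, SOL4 0.33, SDH1 0.81, IDH2 1.75, ACO1 1.64, LSC1 0.45, STF1 1.25, COX13 0.94, TIR1 0.99, ROX1 0.12, HEM13 0.066, OYE3 0.82, OYE2 1.79, GCY1 0.50, PDR5 0.50, TPO2 0.18, SGE1 0.61 and PTK2 0.089. Few others turned sign. With the discordant probes left out SGE1 had 0.056. With them left out and slides 2 and 3 alone PKC1 had -0.0092, YAE1 -0.063, MSB3 -0.091, ARP2 -0.064 and the difference of UFD1 -0.085. In slides 2 and 3 with a loess SSE1 had 0.034, TIF2 0.28, IDH2 0.24, ACO1 0.20, TIR1 0.092, OYE2 0.46 and GCY1 0.11, and GCY1 had 0.17 in the loess over 24 arrays. With spots at or below 0 set to the floor INH1 had -0.24, and its difference -0.053. Without 1 array HSP12 ran from -1.64 to 0.096 and SGE1 from -0.92 to 0.056, the upper ends being without arrays 3 and 2. Where no value shows it, the cause was not tested. Depth is not known for these arrays, and spots near background limit the dim genes.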

Other observations

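Among genes measured on all 24 arrays, PG-259 was the lowest of 8 arrays on every slide for 2 genes, AYR1 and PBN1, named after their values were seen. AYR1, a reductase of lipid metabolism, had -0.26, -1.15 and -0.40 on arrays 1, 2 and 3, with a fitted -0.72 (limma adjusted p = 0.176), and -0.78 without array 1. PBN1, a protein of the endoplasmic reticulum that takes part in making GPI anchors, had -0.53, -0.31 and -0.07, with a fitted -0.37 (adjusted p = 0.729), and -0.19 without array 1. The number of such lowest genes was 1 to 23 in the other 7 mutants. PG-259 thus had 3 genes at an end of the range on every slide, counting PUT3. Its 1 highest and 2 lowest genes lay at or near the low end of the counts in the other mutants. How many genes random ranks would give was not computed, so these genes are not a trait that sets PG-259 apart.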
